A study of Mus musculus with 24 samples.

Results

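The genes of cAMP signalling in the mouse prefrontal cortex (PFC) were described across control mice and mice after chronic social stress, each with saline or dexamethasone (DEX). Members were the rows of the normalized count table whose gene symbol named an adenylyl cyclase (Adcy followed by a number), a cyclic nucleotide phosphodiesterase (Pde, a number and a letter from a to d), a subunit of protein kinase A (PKA; Prkac or Prkar) or an A-kinase anchoring protein (Akap and a number). The rule used no measured value and gave 42 of the 14074 genes in the table, with 9 Adcy, 15 Pde, 6 Prka and 12 Akap genes. All 24 libraries came from adult male C57BL/6 mice, 1 library per mouse, in 6 groups of 4. Control mice were not stressed, and the stressed mice went through 30 days of social confrontations with aggressive CD1 males. Stressed mice were divided by their behaviour into a passive coping group (PS, labelled dep1) and an active coping group (AS, labelled dep2). Each phenotype was sampled 6 h after an injection of saline or of DEX at 2 mg/kg, so the saline groups also carried an injection. The tissue block held secondary motor, anterior cingulate, orbital, prelimbic and infralimbic cortex, so each value is a mix of cell types, and fewer cells of a type and less RNA per cell cannot be told apart in it.

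Adenylyl cyclases make cAMP from ATP when receptors coupled to the stimulatory G protein are engaged, and several of them are slowed by the inhibitory G proteins. Phosphodiesterases break down cAMP, cGMP or both and so end or confine the signal. Raised cAMP frees the catalytic subunits of PKA from the regulatory subunits, anchoring proteins hold PKA beside its substrates, and one of those substrates is CREB, a factor that binds cAMP response elements in promoters. In the prefrontal cortex the pathway is known for its effect on the firing of pyramidal neurons during working memory and under stress, where the alpha2A adrenergic receptor lowers cAMP. DEX is a synthetic glucocorticoid that activates the glucocorticoid receptor, a factor that binds its own response elements.

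Because both CREB and the glucocorticoid receptor bind short motifs near gene starts, the promoters of the members were searched on both strands. The motifs were TGACGTCA (the full cAMP response element) and TGACGT (its 5′ part, which every TGACGTCA also holds). Also searched was a shortened form of the glucocorticoid response element, GAACA and TGT with 3 free bases between them. Windows ran from 250 bases before to 50 bases after each start in RefSeq (GRCm38.p6), and 36 of the 42 members had at least 1 window, 75 windows in all. TGACGT was present in windows of 5 members (Adcy9, Akap11, Pde4a, Pde4b and Prkar1a), and the full element in Prkar1a. TGACGT was in 8% of the members' windows and 7.51% of all 32851 windows, and TGACGTCA in 2.67% and 1.79%. The shortened glucocorticoid response element was present in windows of 4 members (Pde1a, Pde2a, Pde8b and Prkaca), in 6 of the 75 windows (8%), and in 0.971% of all windows. Windows of 1 gene can overlap and are not independent. The matches upstream of a start are shown with their flanks, since they are full or shortened forms of motifs that CREB and the glucocorticoid receptor are known to bind. Binding was not measured. Capitals mark the motif on either strand.
Prkar1a (chr11:109650890-109650917, plus strand): cgaggcgcatTGACGTCAgcagccgaac
Pde4a (chr9:21184040-21184065, plus strand): gcacagctcgACGTCAggctggggag
Pde4b (chr4:102421510-102421535, plus strand): atttggctgcACGTCAattttctcat
Akap11 (chr14:78537067-78537092, minus strand): agcgcgcaagACGTCAgccgagagtt
Adcy9 (chr16:4420507-4420532, minus strand): gacccggcggTGACGTgcgcgggccg
Prkaca (chr8:83976735-83976761, plus strand): tctagatgGAACAAATTGTtgccttct
Pde1a (chr2:80038925-80038951, minus strand): gagcctcaGAACAGGCTGTtttaaaga
Pde2a (chr7:101455857-101455883, plus strand): ccttaggtGAACACTCTGTtaatagca
Pde8b (chr13:95250486-95250512, minus strand): taagaaagACACCATGTTCcaaaatgc
Among the 10 members that changed with DEX below, 7 had a window (all but Adcy8, Akap12 and Pde9a), and none of the 7 held any of the motifs. No match says only that these letters are absent from the window.

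The libraries held between 21121869 and 59439645 reads on genes, with a median of 24420130, and every member had at least 35 reads in every library. With saline and DEX the medians were 22869703 and 23492572 in controls, 24008146 and 24187702 in PS and 34242532 and 37876626 in AS mice. Comparisons of AS mice with the other phenotypes thus set groups of unlike depth side by side, and the part of depth in them was not tested. The DEX labels were checked with Fkbp5 and Tsc22d3, genes that glucocorticoids induce. Fkbp5 rose in control, PS and AS mice by a log2 fold change of 2.26, 2.00 and 1.91, and Tsc22d3 by 1.06 on average, without overlap between saline and DEX in any phenotype. Markers of pyramidal neurons such as Slc17a7 and Camk2a were present in every library, with a summed level of 151561 to 214153 (median 178221) normalized counts in saline-treated controls. Markers of striatum, which borders the cortex dissected, were also present, and the median of their sum was higher with DEX in each phenotype. In controls the sum ran from 4902 to 5795 (median 5248) with saline and from 5771 to 7109 (median 5971) with DEX, in PS mice from 4596 to 5658 (median 5339) and from 5308 to 6638 (median 5677), and in AS mice from 5192 to 5859.6 (median 5617) and from 6143 to 7713 (median 6428). Of the 7 striatal markers analysed, 3 rose with DEX averaged over phenotypes and none fell. Drd1 and Ppp1r1b of that list also belong to the cAMP pathway, and its genes Drd2 and Adora2a were not analysed here. A model with this sum as a covariate is given beside the results it touches. Because the sum itself was higher with DEX, the covariate and part of the DEX effect cannot be told apart in that model. Calls lost or gained there do not say whether striatal tissue or DEX itself was behind them, which was not tested.

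First, the families were compared within saline-treated control mice as normalized counts per 1000 exon bases (per kb), so that long and short genes can be set side by side. Adcy1, a cyclase stimulated by calcium and calmodulin, stood at 1684 ± 299 per kb (SD, n = 4) and Adcy2, which G protein beta-gamma subunits stimulate, at 1459 ± 103. These levels overlapped within their spread and made up 35.7% and 31% of the summed cyclase level. Adcy5, the main cyclase of the striatum, followed at 546 ± 37.7 per kb. At the other end, Adcy8, also stimulated by calcium, stood at 76.2 ± 20.7, Adcy7 at 37.2 ± 4.4 and Adcy4 at 22.6 ± 7.28.

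Among phosphodiesterases, the calcium- and calmodulin-dependent enzymes Pde1a and Pde1b, which act on both nucleotides, led with 968 ± 90.1 and 752 ± 35 per kb. The cAMP-specific enzymes Pde4a (509 ± 37.2), Pde8b (395 ± 39.2) and Pde4b (334 ± 17.7) came next. Pde6d, a carrier of prenylated proteins that shares the family's name, was at 343 ± 7.82. The cGMP-specific Pde9a stood at 74 ± 9.36 and Pde5a at 38.1 ± 1.06. Pde2a had the lowest level, 26.9 ± 5.18, but 3955 of its 6149 exon bases were shared on the same strand with the annotated gene Gm45837, so its count is uncertain.

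PKA subunits were the most abundant family per kb. Prkar1b, a regulatory subunit of the nervous system, stood at 8155 ± 817 per kb and made up 48.8% of the family's sum, and Prkar1a, the ubiquitous type I regulatory subunit, at 3966 ± 127. The catalytic subunits Prkaca and Prkacb stood at 2255 ± 114 and 1647 ± 129, and the type II regulatory subunits Prkar2b and Prkar2a at 412 ± 40.3 and 267 ± 9.48. Of the Prkar1b exon bases, 8.95% lay on the same strand as an exon of Gm15672. Exons on the opposite strand overlapped 9 members, by at most 22.1% of their bases (Adcy3 and Cenpo), and the strand setting of the counting was not given in the sources used here, so reads of such pairs cannot be told apart. Anchoring proteins ranged from 82.1 ± 6.35 for Akap13 to 1076 ± 95.4 for Akap8l, a nuclear protein. Akap11 (729 ± 81.3), Akap6 (569 ± 70.7) and Akap5 (488 ± 65.2), the anchor of the postsynaptic density, lay between.

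**Figure D1:**
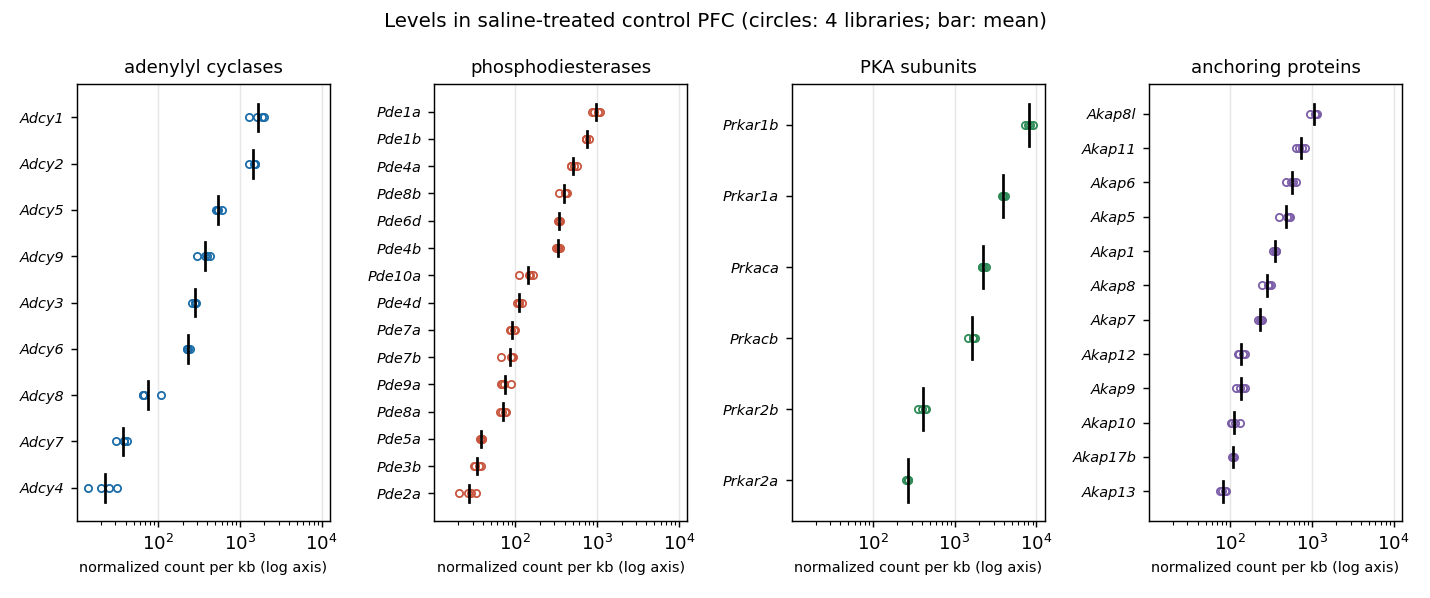
Normalized counts per 1000 exon bases (log axis) of the 42 members in saline-treated control PFC, by family. Circles are the 4 libraries and bars the mean. Prkar1b was highest at 8155 and Adcy4 lowest at 22.6.

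Next, the response to DEX was averaged over control, PS and AS mice, which uses 12 libraries against 12. Of the 42 members, 9 fell and 1 rose, and the changes were small: from -0.52 for Adcy4 to 0.29 for Pde9a on the log2 scale. The falls were in 2 calcium- or beta-gamma-stimulated cyclases (Adcy8 and Adcy4), the phosphodiesterases Pde7b and Pde1b, the regulatory subunit Prkar2b and the anchoring proteins Akap12, Akap5, Akap1 and Akap7. The rise was in Pde9a, which breaks down cGMP rather than cAMP. Genes were called at a Benjamini-Hochberg adjusted p under 0.1 in limma on log2(normalized count + 1), so fold changes of low genes are slightly understated. Over all 14074 genes, 15.5% were called in this comparison, 7.46% as rises and 8.01% as falls, beside 23.8% of the members, 2.38% as rises and 21.4% as falls. The median log2 fold change was -0.038 over the members and -0.0024 over all genes.

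By family, 2 of 9 cyclases, 2 of 15 phosphodiesterases, 1 of 6 PKA subunits and 4 of 12 anchoring proteins fell, and 1 phosphodiesterase rose. In each of the 24 fits that left out 1 library, 6 members stayed called: Adcy4, Adcy8, Akap1, Akap12, Pde9a and Prkar2b. The other 4, Akap5, Akap7, Pde1b and Pde7b, lay close to the threshold. The count was 6 without PS mouse 28 (saline), which is 14.3% of the members beside 14.3% of all genes. With the striatal marker sum as a covariate it was 5, which is 11.9% of the members beside 18.7% of all genes. The members' larger share in the average thus did not hold in either fit. Those 5 were Adcy8, Akap12 and Pde1b as falls, joined by Pde1a (0.28, SE 0.063, Benjamini-Hochberg adjusted p = 0.00389 by limma) as a rise and Pde6d (-0.22, SE 0.065, Benjamini-Hochberg adjusted p = 0.0247 by limma) as a fall.

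**Figure D2:**
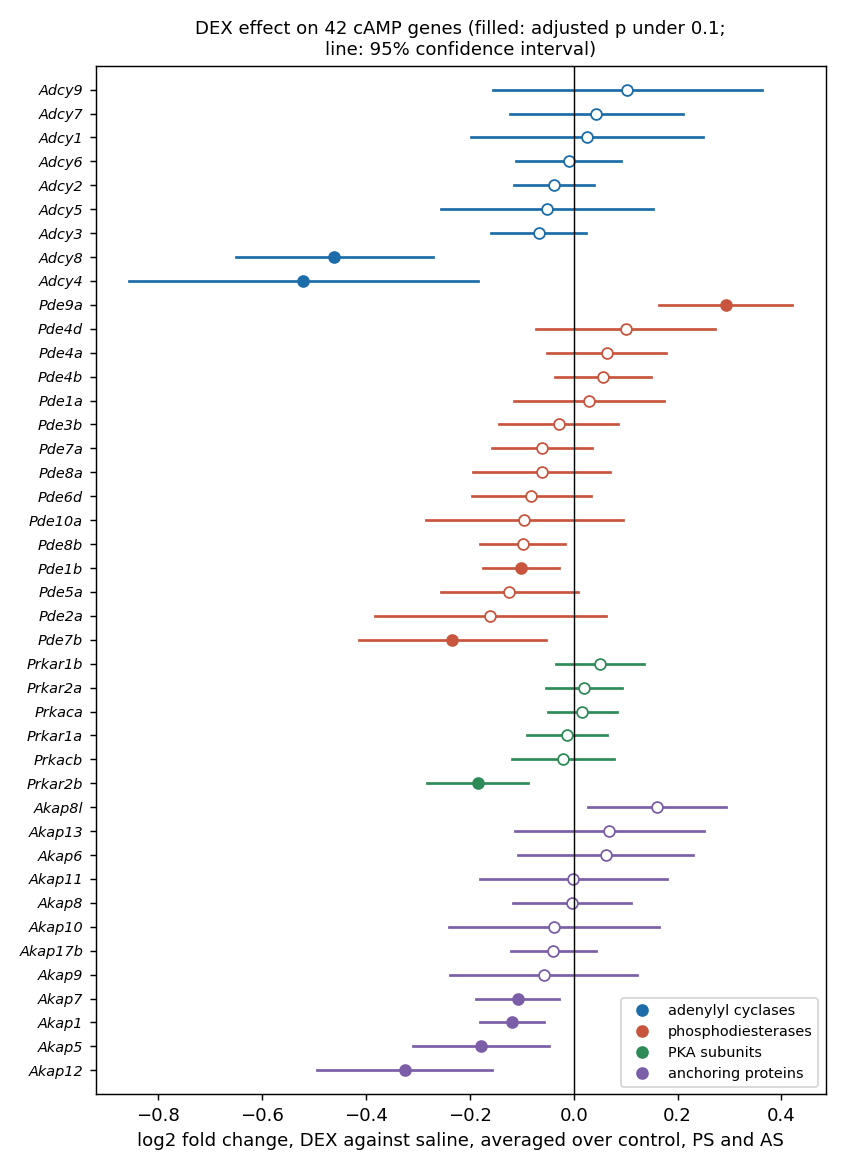
Log2 fold change of the 42 members, DEX against saline averaged over control, PS and AS mice, by family. Points are estimates, lines 95% confidence intervals, and filled points passed an adjusted p under 0.1. Adcy4 and Adcy8 lie farthest to the left and Pde9a farthest to the right, and the intervals of 5 of the 6 PKA subunits lie between -0.12 and 0.14.

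In the values per library that follow, the 4 numbers of a group follow the mouse numbers 106, 107, 109 and 117 (control, saline), 101, 108, 112 and 122 (control, DEX), 2, 28, 62 and 68 (PS, saline), 6, 34, 52 and 56 (PS, DEX), 8, 14, 40 and 44 (AS, saline) and 38, 42, 60 and 72 (AS, DEX). All are normalized counts.

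Adcy8 (chromosome 15, 64697084 to 64922296, minus strand), a calcium-stimulated cyclase of neurons, had the largest fall in control mice. Its values were 530.5, 526, 553 and 873 in saline-treated controls and 268, 337, 405 and 373 after DEX, so the groups did not overlap, and control mouse 117 stood well above the other saline-treated controls. The log2 fold change was -0.82 (SE 0.16, Benjamini-Hochberg adjusted p = 0.00196 by limma). In PS mice Adcy8 was at 552, 482, 449 and 532 with saline and 439.8, 519, 409 and 379 with DEX, and in AS mice at 477, 582, 465 and 451 and 495, 404, 363 and 306. Both of these pairs of groups overlapped, with log2 fold changes of -0.21 (95% confidence interval -0.54 to 0.12) and -0.35 (-0.67 to -0.019). Averaged over phenotypes Adcy8 fell by 0.46 on the log2 scale (SE 0.091, Benjamini-Hochberg adjusted p = 0.000946 by limma). Without control mouse 117 the log2 fold change in controls was -0.65 (adjusted p = 0.00986 in limma), and it passed in each of the 24 fits without 1 library.

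Adcy4 (chromosome 14, 55769057 to 55784095, minus strand) was the least abundant member, and it fell in AS mice. Saline-treated AS libraries had 131, 93.2, 167 and 98.8 and DEX-treated AS libraries 55.7, 37.4, 76.8 and 40.3, with no overlap. The log2 fold change was -1.22 (SE 0.28, Benjamini-Hochberg adjusted p = 0.00887 by limma), and across the fits without 1 library it ran from -1.42 to -1.06. Control libraries had 94.5, 117, 146 and 65.7 with saline and 123, 108, 84.6 and 135 with DEX, and PS libraries 58.6, 94, 95.9 and 110.4 and 67.4, 41.4, 54.6 and 103. These groups overlapped, with log2 fold changes of 0.13 and -0.47. The average over phenotypes was -0.52 (SE 0.16, Benjamini-Hochberg adjusted p = 0.0361 by limma), and with the striatal sum as a covariate -0.37 (adjusted p = 0.302 in limma). With a minimum mean of 100 normalized counts, Adcy4 was not tested.

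Vascular markers moved in the same libraries. The 8 endothelial markers summed to 5475 to 9003 (median 7197) in saline-treated and 4065 to 6185 (median 4125) in DEX-treated AS mice, and 4 of the 8 fell there, with a median log2 fold change of -0.61. In controls the sum was 6049 to 8295 (median 6873) with saline and 6696 to 10019 (median 8219) with DEX, in PS mice 5729.7 to 8148 (median 6956) and 3588 to 8138 (median 5905). None of the 8 was called in controls and 1 fell in PS mice. Of the 8 markers of mural cells, the contractile cells around vessels, 4 fell in AS mice with a median of -0.71. No endothelial or mural marker was at or under 3 reads throughout a group. The part of these cells in the Adcy4 result was not tested.

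The other 7 cyclases did not pass in any of the 9 comparisons. Adcy1 and Adcy2, the most abundant, had 21093 ± 3748 and 6144 ± 435 normalized counts in saline-treated controls (SD, n = 4), and their averaged log2 fold changes with DEX were 0.026 (95% confidence interval -0.20 to 0.25) and -0.037 (-0.11 to 0.039). The interval of Adcy2 was narrow and that of Adcy1 wide, and Adcy1 spread from 12122 to 22382 within DEX-treated AS mice alone.

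Among phosphodiesterases, Pde9a (chromosome 17, 31386210 to 31476310, plus strand), a high-affinity cGMP enzyme, was higher with DEX in each phenotype and passed in PS mice. PS libraries had 227, 257, 233 and 231 with saline and 304, 298, 290.2 and 356 with DEX, without overlap. The log2 fold change there was 0.39 (SE 0.11, Benjamini-Hochberg adjusted p = 0.0386 by limma). With the striatal sum as a covariate it was 0.32 (adjusted p = 0.112 in limma). Without the covariate, the call was lost when PS mouse 2 was left out (saline; adjusted p = 0.116 in limma) or PS mouse 56 (DEX; adjusted p = 0.136 in limma). Control libraries had 256, 237, 243 and 309.9 and 351, 291, 294 and 337, and AS libraries 294, 256, 249 and 263 and 319, 251, 364 and 296. In both phenotypes at least 1 DEX library lay within the range of saline. The averaged log2 fold change was 0.29 (SE 0.062, Benjamini-Hochberg adjusted p = 0.00178 by limma), and it was 0.20 (adjusted p = 0.119 in limma) with the striatal sum as a covariate.

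Pde7b (chromosome 10, 20398004 to 20725078, minus strand), a cAMP-specific enzyme, had its largest log2 difference with DEX in PS mice, with 1091, 1382, 1105 and 1199 with saline and 844, 801, 1078 and 831 with DEX. These groups did not overlap, but the comparison within PS mice did not pass (-0.43, SE 0.15, Benjamini-Hochberg adjusted p = 0.14 by limma), nor did its difference from controls (-0.38, SE 0.21, Benjamini-Hochberg adjusted p = 0.578 by limma). Control libraries had 1106, 1128, 1158 and 824 and 972, 1061, 961 and 1036, and AS libraries 1308, 1004, 1351 and 863 and 849.9, 1128, 725 and 1206, with wide overlap in both. The averaged log2 fold change of -0.23 (SE 0.087, Benjamini-Hochberg adjusted p = 0.0906 by limma) failed in more of the fits without 1 library than any other of the 10, and with the striatal sum as a covariate it was -0.24 (adjusted p = 0.222 in limma). It no longer passed when any 1 of 16 libraries was left out, namely mice 106, 107 and 109 (control saline), mice 101, 108, 112 and 122 (control DEX), mice 28 and 68 (PS saline), mice 6, 34 and 56 (PS DEX), mice 8 and 40 (AS saline), mice 38 and 60 (AS DEX), with adjusted p from 0.102 to 0.169 in limma.

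Pde1b (chromosome 15, 103503034 to 103530052, plus strand), the calcium-dependent enzyme of neurons that also marks striatum, had the smallest averaged change of the 10 called members. AS libraries had 4843, 4210.1, 4317 and 4054 with saline and 4040.3, 3779, 3633 and 4084 with DEX, and 1 of the 4 DEX values lay within the saline range. Control libraries had 4337, 3978, 3975 and 3932 and 4046, 3788, 3709 and 3904, and PS libraries 4110.3, 4218, 4243 and 3963 and 3726, 4415, 3822 and 3809.7, with PS mouse 34 above every saline value of its phenotype. The averaged log2 fold change was -0.10 (SE 0.036, Benjamini-Hochberg adjusted p = 0.0663 by limma) and grew to -0.19 (adjusted p = 0.0034 in limma) with the striatal sum as a covariate. It no longer passed when any 1 of 11 libraries was left out, namely mouse 106 (control saline), mice 108 and 112 (control DEX), mice 28 and 62 (PS saline), mice 6, 52 and 56 (PS DEX), mouse 8 (AS saline), mice 42 and 60 (AS DEX), with adjusted p from 0.103 to 0.131 in limma.

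Grouped by substrate, 1 of the 7 cAMP-specific phosphodiesterases (Pde4a, Pde4b, Pde4d, Pde7a, Pde7b, Pde8a, Pde8b) fell with DEX on average and none rose, with a median log2 fold change of -0.061. Of the 2 cGMP-specific enzymes, Pde9a rose and Pde5a, the target of sildenafil, was at -0.12 (95% confidence interval -0.25 to 0.0077). Of the 5 enzymes that act on both nucleotides (Pde1a, Pde1b, Pde2a, Pde3b, Pde10a), Pde1b fell. Pde10a, an enzyme of striatal neurons, was at -0.095 (-0.28 to 0.095), and Pde1a, with the highest count of the family, at 0.029 (-0.12 to 0.17). Pde1a had 5818 ± 542 and 5064 ± 1001 in controls, 5118 ± 481 and 5598 ± 640.2 in PS, and 4722 ± 405 and 5372 ± 792 in AS mice with saline and DEX (SD, n = 4).

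Of the PKA subunits, only Prkar2b was called in any of the comparisons. Prkar2b (chromosome 12, 31958476 to 32061296, minus strand) encodes RII-beta, a regulatory subunit of brain and fat that anchoring proteins bind. Saline-treated libraries had 1463, 1634, 1609 and 1316 in controls, 1651, 1624, 1412 and 1626 in PS and 1502, 1573, 1504 and 1502 in AS mice. With DEX the values were 1207, 1410.3, 1372 and 1261, 1352, 1338, 1528 and 1281 and 1403, 1575, 1245 and 1244. The group means were lower with DEX in each phenotype while the ranges overlapped, and AS mouse 42 was the one DEX-treated AS library at the level of saline. The log2 fold changes were -0.20, -0.20 and -0.16, none of which passed alone, and the average was -0.19 (SE 0.047, Benjamini-Hochberg adjusted p = 0.00888 by limma). With the striatal sum as a covariate the average was -0.065 (adjusted p = 0.476 in limma).

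The other 5 subunits, Prkaca, Prkacb, Prkar1a, Prkar1b and Prkar2a, had averaged log2 fold changes from -0.02 to 0.051. Their 95% confidence intervals together ran from -0.12 to 0.14, so larger changes lay outside all 5 intervals. Prkar1b and Prkar1a, the most abundant, had 31072 ± 3113 and 17136 ± 547 normalized counts with saline and 30758 ± 902 and 16449.6 ± 911 with DEX in controls (SD, n = 4).

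Among anchoring proteins, Akap12 (chromosome 10, 4266380 to 4359470, plus strand), the scaffold known as gravin that binds the beta2 adrenergic receptor, had the largest averaged fall. Control libraries had 833, 800.5, 982 and 938 with saline and 671, 725, 605 and 734 with DEX, without overlap. PS libraries had 804, 749, 964 and 621 and 663, 483, 739 and 740.0, and AS libraries 833, 861, 907 and 586 and 640.0, 581, 579.6 and 687. Their ranges overlapped, in AS mice only because mouse 44 was low among the saline libraries. The averaged log2 fold change was -0.33 (SE 0.082, Benjamini-Hochberg adjusted p = 0.00789 by limma), and no single phenotype passed. With the striatal sum as a covariate it was -0.30 (adjusted p = 0.0887 in limma).

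Akap1 (chromosome 11, 88830792 to 88864586, minus strand), which anchors PKA to the outer mitochondrial membrane, fell in controls from 1595, 1565, 1616 and 1486 to 1318, 1406, 1358 and 1421, without overlap. The log2 fold change was -0.19 (SE 0.052, Benjamini-Hochberg adjusted p = 0.0372 by limma). With the striatal sum as a covariate it was -0.15 (adjusted p = 0.153 in limma). Without the covariate, the call was lost when control mouse 106 was left out (saline; adjusted p = 0.104 in limma) or control mouse 101 (DEX; adjusted p = 0.125 in limma). PS libraries had 1481, 1503, 1463 and 1501 with saline and 1422, 1331, 1451 and 1345 with DEX, also without overlap, and AS libraries had 1519, 1514, 1472 and 1371 and 1488, 1312, 1376 and 1426. The average over phenotypes was -0.12 (SE 0.03, Benjamini-Hochberg adjusted p = 0.00788 by limma). Its spread within groups was the smallest of all members, an SD of 0.058 on the log2 scale. With the striatal sum as a covariate the average was -0.089 (adjusted p = 0.155 in limma).

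Akap5 (chromosome 12, 76324891 to 76334153, plus strand), which holds PKA and calcineurin at excitatory synapses, had 3561, 3432, 3646 and 2673 with saline and 2415, 2514, 2818 and 2816 with DEX in controls, where only mouse 117 of the saline libraries lay within the DEX range. In PS mice the values were 3083, 3623, 3171 and 3379.5 and 2931, 2236, 3306 and 2789, and in AS mice 3278, 3002, 3243 and 2642 and 3016, 3266, 2687 and 3529, where the mean was not lower with DEX. The averaged log2 fold change was -0.18 (SE 0.064, Benjamini-Hochberg adjusted p = 0.0711 by limma). Akap7 (chromosome 10, 25169090 to 25307870, minus strand), an anchor at the plasma membrane, had 956, 1049, 1066 and 1029.6 and 932, 959.9, 1026 and 909 in controls, 1094, 1131, 994 and 1076 and 993, 889, 1050.1 and 963 in PS, and 984, 1102, 1056 and 1193 and 1009.9, 1050.5, 1071 and 959 in AS mice. Every pair of groups overlapped, and the averaged log2 fold change was -0.11 (SE 0.039, Benjamini-Hochberg adjusted p = 0.0734 by limma). In the model with striatal markers the averages were -0.10 (adjusted p = 0.484 in limma) for Akap5 and -0.031 (adjusted p = 0.725 in limma) for Akap7.

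Neither call held in every fit without 1 library. Akap5 no longer passed when any 1 of 12 libraries was left out, namely mice 106, 107 and 109 (control saline), mice 101 and 108 (control DEX), mice 28 and 68 (PS saline), mouse 34 (PS DEX), mice 8 and 40 (AS saline), mice 38 and 60 (AS DEX), with adjusted p from 0.102 to 0.127 in limma. Akap7 no longer passed when any 1 of 13 was left out, namely mice 107 and 109 (control saline), mice 101 and 122 (control DEX), mice 2, 28 and 68 (PS saline), mice 34 and 56 (PS DEX), mice 14 and 44 (AS saline), mice 38 and 72 (AS DEX), with adjusted p from 0.1002 to 0.132 in limma. The most abundant anchoring proteins by count, Akap6 (8442 ± 1049.5 in saline-treated controls) and Akap11 (8029 ± 896), were at 0.061 (95% confidence interval -0.11 to 0.23) and -0.00048 (-0.18 to 0.18) on average. Akap8 and Akap8l, neighbours on chromosome 17 that are 185 bases apart on the same strand, had averaged log2 fold changes of -0.004 and 0.16 (Benjamini-Hochberg adjusted p = 0.986 and 0.121 by limma).

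**Figure D3:**
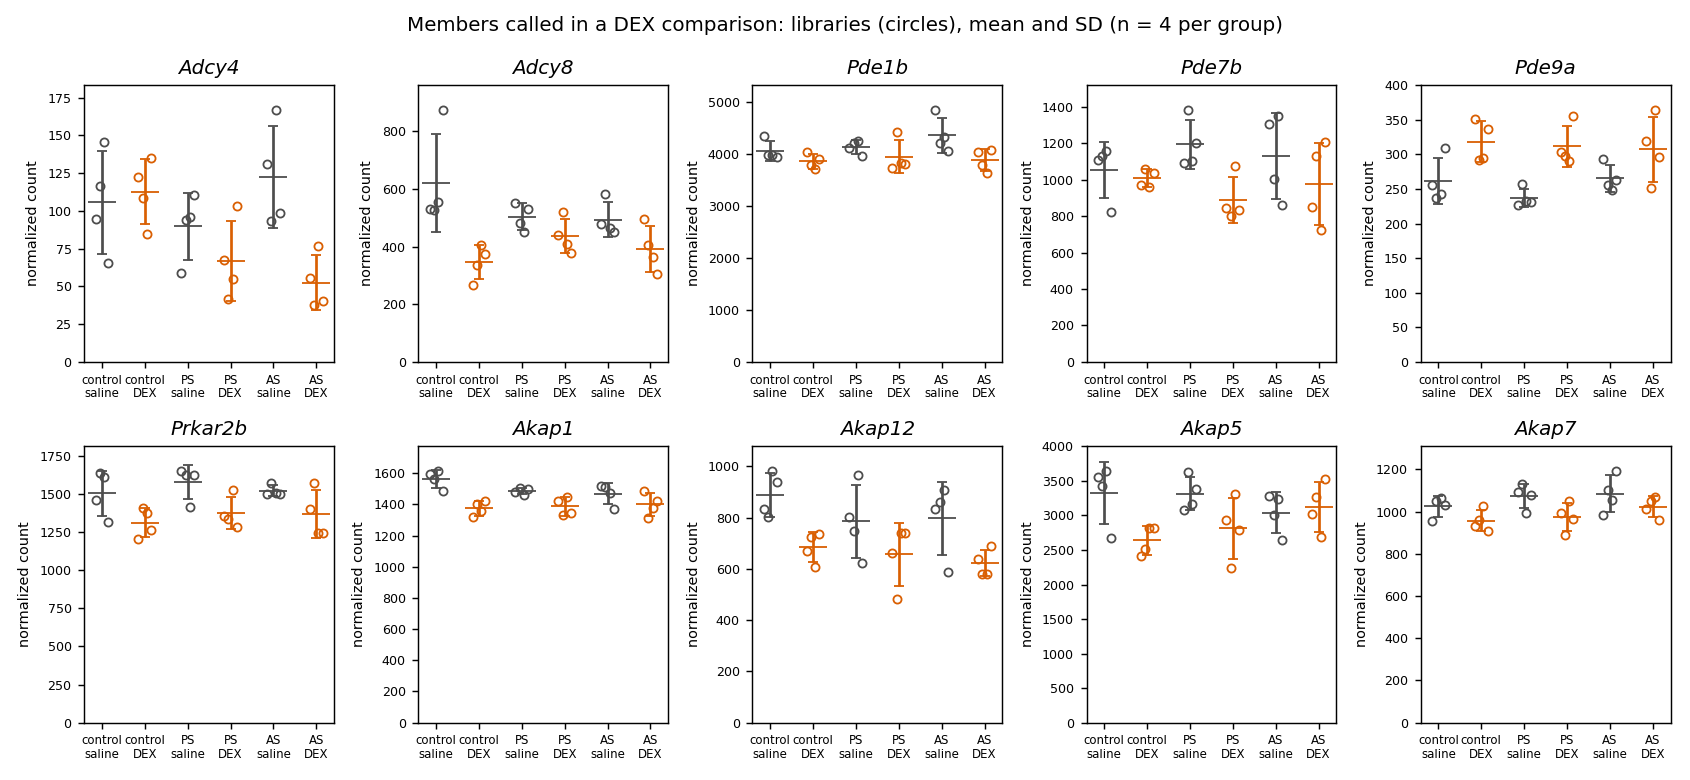
Normalized counts of the 10 members called in a DEX comparison, in the 6 groups (grey, saline; orange, DEX). Circles are libraries, bars the mean and SD of 4. Adcy8, Akap1 and Akap12 separate without overlap in controls, Akap1, Pde7b and Pde9a in PS mice and Adcy4 in AS mice. Akap5, Akap7, Pde1b and Prkar2b overlap in every phenotype.

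Within each phenotype fewer members passed. In control mice 2 of 42 members were called, both falls (Adcy8 and Akap1), beside 6.49% of all genes, with 4.03% rising and 2.46% falling. In PS mice 1 was called, the rise of Pde9a, beside 5.36% of all genes (2.74% rising, 2.62% falling). In AS mice 1 was called, the fall of Adcy4, beside 8.77% of all genes (3.82% rising, 4.95% falling). The members' shares, 4.76%, 2.38% and 2.38%, lay below those of all genes in this fit. The order turned in others: in controls it was 9.52% of members and 7.16% of all genes with DESeq2, and 14.3% and 5.29% without control mouse 117 (saline), and in PS mice it was 7.14% and 5.74% in the fit of only the groups compared. At an unadjusted p under 0.05, 10, 6 and 4 members passed, which is 23.8%, 14.3% and 9.52% of them, beside 15.3%, 13.6% and 18.2% of all genes. The fit of only the groups compared called Adcy8, Akap12 and Akap8l in controls (7.14% of the members beside 5.29% of all genes), and Akap1 no longer passed there. In the model with striatal markers, Adcy8 alone was called in controls, Pde1a and Pde4a in PS mice, and Adcy4, Akap6, Pde1a, Pde1b, Pde4a and Pde6d in AS mice, the last being 14.3% of the members beside 18.1% of all genes. In controls and PS mice these were 2.38% and 4.76% of the members, beside 6.03% and 6.37% of all genes.

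These counts moved with single libraries. In controls the count was 1 (Adcy8) without control mouse 106 (saline) or 101 (DEX), 6 without control mouse 117 (saline), 5 without PS mouse 34 (DEX) and 4 without AS mouse 44 (saline) or AS mouse 60 (DEX). The shares of all genes called in these fits were 4.54%, 4.34%, 5.29%, 7.18%, 6.9% and 7.33% in that order, beside 2.38%, 2.38%, 14.3%, 11.9%, 9.52% and 9.52% of the members. Akap5 joined Adcy8 and Akap1 in all 4 of these larger counts. In PS mice it was 0 without PS mouse 2 (saline) or 56 (DEX) and 2 without PS mouse 52 (DEX), AS mouse 44 (saline) or AS mouse 60 (DEX), with Pde7b as the second. All-gene shares were 3.62% and 5.01% for the former fits and 4.48%, 6.03% and 6.19% for the latter, where 4.76% of the members were called. In AS mice it was 2 without PS mouse 34 (DEX; Adcy4 and Pde1b) and 4 without AS mouse 44 (saline; Adcy4, Adcy6, Akap12 and Pde1b) or without AS mouse 60 (DEX; Adcy4, Akap6, Pde4b and Pde4d). These are 4.76%, 9.52% and 9.52% of the members, beside 9.85%, 14.1% and 11.4% of all genes.

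**Figure D4:**
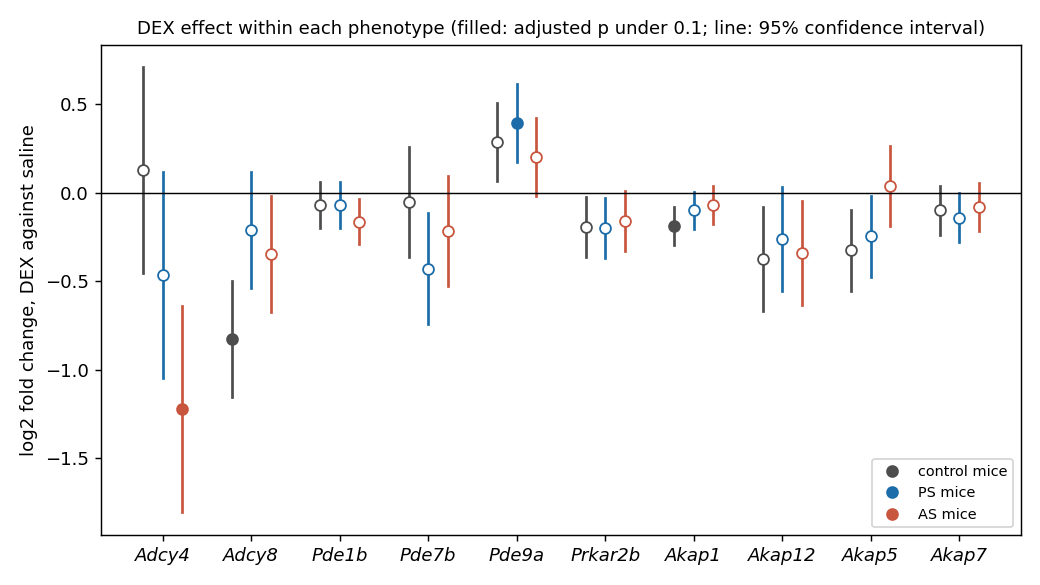
Log2 fold change, DEX against saline, of the 10 called members in control, PS and AS mice. Points are estimates, lines 95% confidence intervals, and filled points passed an adjusted p under 0.1. Adcy8 lies lowest in controls (-0.82) and Adcy4 in AS mice (-1.22), while Prkar2b lies at -0.20, -0.20 and -0.16.

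Whether stress changed the response to DEX was tested as an interaction, the DEX effect in PS or AS mice minus that in controls. None of the 42 members passed in limma for PS or AS, beside 0% of all genes for PS and 0.348% for AS. At an unadjusted p under 0.05, 3 members (7.14%) passed for PS and 7 (16.7%) for AS, beside 9.98% and 13.5% of all genes. edgeR called none in either, and DESeq2 called none for PS and 1, Adcy4, for AS. For AS that 1 was 2.38% of the members, beside 3.12% of all genes with DESeq2. Over all genes, 1404 passed an unadjusted p under 0.05 for PS, where edgeR also called 0 and DESeq2 23. The interaction of Adcy4 in AS mice was -1.35 (SE 0.40, Benjamini-Hochberg adjusted p = 0.141 by limma). It passed without AS mouse 60 (DEX), without control mouse 112 (DEX) and, together with Adcy6, without AS mouse 44 (saline). Of all genes, 1.57%, 4.72% and 4.87% passed in these fits, beside 2.38%, 2.38% and 4.76% of the members. In the model with striatal markers Adcy4 (-1.33, SE 0.40, Benjamini-Hochberg adjusted p = 0.0944 by limma) and Pde1a (0.43, SE 0.11, Benjamini-Hochberg adjusted p = 0.0611 by limma) passed, 4.76% of the members beside 3.33% of all genes. For Adcy8 the interactions were 0.61 (95% confidence interval 0.15 to 1.08) in PS and 0.48 (0.016 to 0.94) in AS mice (Benjamini-Hochberg adjusted p = 0.379 and 0.349 by limma). The fall of Adcy8 in controls was thus not shown to differ from that in stressed mice. The interactions for PS and AS share the same 8 control libraries.

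Chronic stress alone was compared in saline-treated mice. No member was called in PS against control, beside 1.51% of all genes, in AS against control, beside 0.156%, or in AS against PS, beside 0%. At an unadjusted p under 0.05, 3, 6 and 0 members passed, which is 7.14%, 14.3% and 0% of them. Beside these stood 13.1%, 11% and 4.77% of all genes. edgeR called no member in any of the 3 comparisons. DESeq2 called 1 in PS against control, Pde4a, and none in the others. That 1 was 2.38% of the members, beside 3.07% of all genes with DESeq2. In AS against PS, 671 of all genes passed an unadjusted p under 0.05, with 0 calls by edgeR and 11 by DESeq2. The median log2 fold change of the members was -0.037 in PS and -0.066 in AS mice, and both refer to the same 4 control libraries. The largest difference from controls was -0.37, that of Akap9, a scaffold of the centrosome and Golgi, in AS mice (95% confidence interval -0.68 to -0.055). Pde1a was at -0.18 in PS and -0.30 in AS mice (Benjamini-Hochberg adjusted p = 0.543 and 0.363 by limma). Its 4 AS libraries lay below the 4 control libraries. Among PKA subunits, Prkaca was at -0.12 in PS mice (95% confidence interval -0.23 to -0.0049), from 5985, 5662, 5338 and 5457 in controls to 5103, 5221, 5120.3 and 5200.1, without overlap. Adcy3, Akap9 and Pde8a in AS mice and Pde4d in PS mice also lay below every control library. Pde6d went the other way in both phenotypes, without overlap. It had 765, 745, 724 and 750 in controls, 836, 773, 853 and 776 in PS and 866, 818, 778 and 917 in AS mice. In AS against PS, Akap11 in AS mice lay below every PS library. The share of all genes whose libraries separated in this way was not counted. These separations are therefore no result about the members, and none of these members was called here in limma.

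Pde4a (chromosome 9, 21165714 to 21213248, plus strand), a cAMP-specific enzyme inhibited by rolipram, was nearest to the threshold and is named after its values were seen. It had 3931, 3706, 3657 and 4282 in saline-treated controls, 2904, 3218, 2959.9 and 3331 in PS mice and 2862, 3859, 2794 and 3482 in AS mice. The PS libraries lay below every control library, while AS mouse 14 lay within the control range. With DEX the values were 2889.9, 3505, 3583 and 3488 in controls, 3556, 3796, 3602 and 3642 in PS and 4177, 3472, 3792 and 3104 in AS mice. DEX-treated control libraries lay below every saline-treated control library, and DEX-treated PS libraries above every saline-treated PS library. None of these differences passed: -0.33 (SE 0.10, Benjamini-Hochberg adjusted p = 0.122 by limma) for PS against control, -0.21 for DEX in controls, 0.24 for DEX in PS mice and 0.45 (SE 0.14, Benjamini-Hochberg adjusted p = 0.367 by limma) for the interaction. PS against control passed for Pde4a in 3 of the 24 fits without 1 library, those without control mouse 101 (DEX), AS mouse 14 (saline) or AS mouse 44 (saline), in the fit of only the groups compared, and in the fit with the striatal sum as a covariate (-0.34, SE 0.09, Benjamini-Hochberg adjusted p = 0.0685 by limma). DEX in PS mice passed for Pde4a in the fit of only the groups compared and with the covariate (0.31, SE 0.10, Benjamini-Hochberg adjusted p = 0.0717 by limma), and DEX in AS mice with the covariate (0.29, SE 0.11, Benjamini-Hochberg adjusted p = 0.0829 by limma).

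Libraries of the same group also differed among themselves, and many members did so together. After each group's mean was subtracted from log2(normalized count + 1), the first component over the 24 libraries took 41.4% of the members' variance, and 29.9% over the 12018 genes whose mean reached 100 normalized counts. Scores of the 2 components had an absolute correlation of 0.975, so the pattern was shared with genes at large. Of the 42 members, 25 correlated with it above 0.5, led by Akap6 (0.98), Akap11 (0.97), Akap9 (0.96), Adcy9 (0.94) and Adcy1 (0.93). Only 3 correlated below -0.5: Pde6d (-0.79), Pde9a (-0.65) and Prkaca (-0.53). Members with more exon bases had higher loadings (Spearman correlation of 0.59 across the 42 genes, which share libraries and are not independent), while sequencing depth did not follow the score (r = 0.051 over 24 libraries).

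At one end stood 5 libraries, with scores from -0.53 for AS mouse 60 (DEX) to -0.29 for control mouse 117 (saline), and between them AS mouse 44 (saline), control mouse 101 (DEX) and PS mouse 34 (DEX). The next library, PS mouse 56 (DEX), was at -0.064. Against their group means, Akap6 was at -0.49, Akap9 at -0.55 and Akap11 at -0.59 on the log2 scale in AS mouse 60, and Pde6d at 0.21. These libraries belonged to 5 of the 6 groups, all but saline-treated PS mice. In saline, PS against control thus set a group without such a library beside a group with 1.

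**Figure D5:**
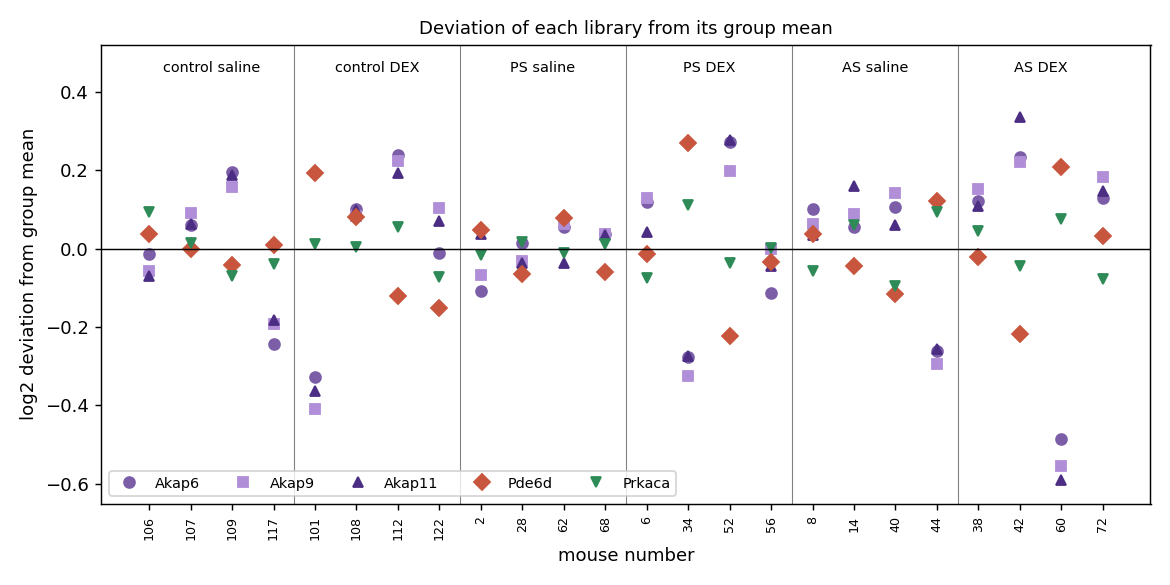
Deviation of each library from its group mean, in log2 units, for Akap6, Akap9, Akap11, Pde6d and Prkaca. Libraries are named by mouse number within the 6 groups, and mice 117, 101, 34, 44 and 60 have low values of the 3 anchoring proteins.

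Leaving out these 5 libraries together was added after the data were seen, and since they were chosen by their distance from their groups, the spread of the remaining 19 is smaller by construction. The members called were then 15 in the DEX average, beside 24.5% of all genes, 4 in controls (6.61%), 4 in PS (8.04%) and 11 in AS mice (20.9%). The 15 split into 10 falls and 5 rises, in place of 9 and 1, the added rises being Adcy9 (0.16), Akap6 (0.13), Pde4b (0.079) and Pde4d (0.20) and the added falls Pde6d (-0.14) and Pde8b (-0.12). The members' shares were 9.52% in controls and PS and 26.2% in AS mice. Of the 10 members called in the average over 24 libraries, 9 stayed, and Akap7 did not (-0.08, SE 0.039, Benjamini-Hochberg adjusted p = 0.164 by limma). The 4 members called in PS against control (9.98% of all genes) were Adcy9 (-0.27), Akap6 (-0.23), Akap9 (-0.23) and Pde4a (-0.28), all lower in PS mice. The 3 called in AS against control (3.11%) were Akap6 (-0.31), Akap9 (-0.33) and Pde1a (-0.39), also lower. The interaction for AS mice gave 3 (2.56%): Adcy4 (-1.39), Akap5 (0.43) and Akap9 (0.40). For Adcy8 in controls the log2 fold change was -0.53 in place of -0.82.

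Finally, the genes around the members were examined: receptors, G proteins, PKA inhibitors, other cAMP effectors, CREB with its partners, phosphatase inhibitors that PKA phosphorylates and CREB target genes, 56 of 64 listed genes being in the table. With DEX averaged over phenotypes, 10 of the 56 rose and 9 fell, which is 33.9% of the list beside 15.5% of all genes, with a median log2 fold change of 0.0062. The list was chosen with earlier results of these data known. Its shares beside those of all genes, here and in each phenotype, are therefore no test of the pathway. Among the 14 receptors analysed 3 rose and 2 fell, among 16 CREB target genes 5 rose and 3 fell, and among 7 other effectors 1 rose and 2 fell. None of the 8 genes for CREB and its partners was called by limma, edgeR or DESeq2, and 0 reached an unadjusted p under 0.05. Of the 56, 5 were called in controls, 10 in PS and 13 in AS mice (8.93%, 17.9% and 23.2%, beside 6.49%, 5.36% and 8.77% of all genes), and limma and edgeR called none in a stress comparison or interaction. At an unadjusted p under 0.05, 10, 11 and 5 of the 56 passed in PS against control, AS against control and AS against PS, and 10 and 11 in the interactions for PS and AS. Of all genes, 13.1%, 11% and 4.77% passed at that level in the stress comparisons, and 9.98% and 13.5% in the interactions. DESeq2 called Vgf in PS against control, Htr1a in AS against control, and Ppargc1a and Prkx in the interaction for AS. Of all genes, DESeq2 called 3.07%, 0.704% and 3.12% in these comparisons.

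The largest rise was that of Adra2a, the alpha2A receptor that inhibits cyclases, from 364 ± 10.2 to 812 ± 55.2 normalized counts in controls, 353 ± 97.6 to 610.0 ± 24.4 in PS and 412 ± 69.1 to 686 ± 146 in AS mice (SD, n = 4). The DEX-treated libraries lay above the saline-treated ones in each phenotype, and the averaged log2 fold change was 0.90 (SE 0.092, Benjamini-Hochberg adjusted p = 1.24e-07 by limma). Htr1a, a serotonin receptor that also inhibits cyclases, followed at 0.44 (SE 0.074, Benjamini-Hochberg adjusted p = 0.000137 by limma). It went from 365 ± 22.9 to 590.0 ± 43.3 in AS mice and from 499 ± 56.6 to 559 ± 144 in controls, where the groups overlapped. Next came the CREB targets Dusp1, a phosphatase of MAP kinases that glucocorticoids are known to induce, at 0.29 (SE 0.073, Benjamini-Hochberg adjusted p = 0.00729 by limma) and Ppargc1a, a coactivator of mitochondrial genes, at 0.28 (SE 0.056, Benjamini-Hochberg adjusted p = 0.000878 by limma).

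The largest fall was that of Crhr1, the receptor for corticotropin-releasing hormone, which stimulates cyclases. Crhr1 went from 953 ± 38.1 to 647 ± 66 in controls, 898 ± 57.1 to 672 ± 95.5 in PS and 959 ± 79.2 to 566 ± 49.1 in AS mice. Saline- and DEX-treated libraries did not overlap in any phenotype, and the averaged log2 fold change was -0.58 (SE 0.053, Benjamini-Hochberg adjusted p = 1.75e-08 by limma). The CREB targets Bdnf, a neurotrophin, and Nptx2, a protein of excitatory synapses, followed at -0.46 (SE 0.074, Benjamini-Hochberg adjusted p = 8.02e-05 by limma) and -0.41 (SE 0.065, Benjamini-Hochberg adjusted p = 7.36e-05 by limma). Hcn4, a channel gated by cAMP, was at -0.36 (SE 0.13, Benjamini-Hochberg adjusted p = 0.0728 by limma). The averaged log2 fold changes of Adra2a and Crhr1 were larger in size than that of any of the 42 members.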

How the data were processed

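RNA-seq was made from the PFC of 24 mice, in 6 groups of 4 taken from the sample labels. The authors selected RNA by its integrity, made strand-specific poly(A) libraries, trimmed reads with fastp 0.20.1, aligned them with HISAT2 2.2.1 to GRCm38 and counted them with featureCounts (Subread 2.0) on GENCODE M22 genes. The deposited signal is gene counts divided by 1 size factor per library from DESeq2 1.36.0. Whole reads were recovered by dividing by each library's step, with 100% of values whole within 0.01 read. The other deposited tables hold fold changes and p-values of the authors' own comparisons and were not used.

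Here limma 3.58.1 (R 4.3.3) was fitted on log2(normalized count + 1) over all 24 libraries, with 1 mean per group. The p-values were adjusted by the Benjamini-Hochberg method over 14074 genes and called under 0.1. They measure the spread between mice. The study's DESeq2 design was run as an alternative on the recovered reads (DESeq2 1.42.0, edgeR 4.0.16), beside a pseudocount of 8, filters (a mean of at least 100, or at least 10 reads in each library), TMM scaling, fits of only the groups compared, a striatal marker covariate and fits without 1 library. Leaving out 5 libraries together was added after seeing the data. The scripts were tested on simulated data.

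Members, pathway genes and 11 marker lists were chosen with earlier results of these data known. Named with full values were members called in any of 9 comparisons, the 2 members of each family with the highest mean count, and at most 4 rises and 4 falls of the pathway list; no member had a mean under 10. Other members are named to describe their family, after their values were seen. Exon lengths and coordinates are from GENCODE M21 (GRCm38), and promoters from RefSeq (GRCm38.p6). Listed genes absent from the table were not analysed here, and 1 marker list is not reported here. Depth differences limit precision for low genes such as Adcy4, and 4 mice a group limit all comparisons.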

Additional observations from a re-analysis of the deposited data

Results flagged for a closer look

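In each group of 4, the highest or lowest library was compared with its nearest neighbour for the 17 members named by rule, and a library counted as far from the others when that gap, as a share of the group's range, exceeded Dixon's 95% critical value. This was met in 9 of 102 groups, where chance gives about 1 in 20. Adcy8 was high in control mouse 117 with saline, at 873 normalized counts, and Pde7b was low in the same library, at 824. Pde1b was high in control mouse 106 with saline (4337) and in PS mouse 34 with DEX (4415). Pde7b was high in PS mouse 52 with DEX (1078). Akap6 was low in AS mouse 44 with saline (5628.5), while the other saline-treated AS libraries reached at least 7005. In the same group Prkar1b had an outlying value of 29069, in mouse 40, and Prkar2b a high value of 1573, in mouse 14. Prkar2b was low in PS mouse 62 with saline (1412).

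Of these libraries, control mouse 117, PS mouse 34 and AS mouse 44 are among the 5 that stood apart on the component shared by most members.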

How the results depend on the processing

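The count of members called in the DEX average, 10, was also 10 under a pseudocount of 8, a minimum of 10 reads, TMM scaling and edgeR. That is 23.8% of the members, beside 15.6%, 16.7%, 15.5% and 15.5% of all genes in that order. The count was 9 with a mean of at least 100 (22% beside 16.9% of all genes) and 12 with DESeq2 (28.6% beside 16.6%). Under the striatal marker covariate it was 5, which is 11.9% of the members beside 18.7% of all genes. In the single comparisons the covariate gave 1 in controls, 2 in PS, 6 in AS mice, 1 in PS against control and 2 in the AS interaction. These are 2.38%, 4.76%, 14.3%, 2.38% and 4.76% of the members, beside 6.03%, 6.37%, 18.1%, 2.4% and 3.33% of all genes. DESeq2 gave 4, 2 and 3 members for DEX in control, PS and AS mice, 1 in PS against control and 1 in the AS interaction. These are 9.52%, 4.76%, 7.14%, 2.38% and 2.38% of the members, beside 7.16%, 6.42%, 11.5%, 3.07% and 3.12% of all genes. Fits of only the groups compared gave 3 for DEX in PS mice (7.14% beside 5.74% of all genes) and 1 in PS against control (2.38% beside 3.72%). A mean of at least 100 gave 0 for DEX in AS mice (beside 9.82% of all genes), because Adcy4 was then not tested. Without the 5 libraries, an alternative added after seeing the data, the counts were 4 for DEX in controls, 4 in PS and 11 in AS mice, 4 in PS against control, 3 in AS against control and 3 in the AS interaction. The shares of all genes in that fit are given above. Leaving out each library in turn gave 6 to 11 members in the DEX average, 1 to 6 in controls, 0 to 2 in PS mice and 1 to 4 in AS mice. The 6 were 14.3% of the members beside 14.3% of all genes, and the 11, without control mouse 117 (saline), 26.2% beside 15.5%. These fits gave 0 to 1 in PS against control, 0 to 2 in the AS interaction, and 0 in each of the 24 fits for AS against control, AS against PS and the PS interaction. The 1 in PS against control was 2.38% of the members. All genes stood at 1.66% without control mouse 101 (DEX), 1.4% without AS mouse 14 (saline) and 2.47% without AS mouse 44 (saline). The 2 in the AS interaction, without AS mouse 44 (saline), were 4.76% beside 4.87%. Among the members' fold changes that passed in the limma fit of all 24 libraries, 383 values under these alternatives kept their direction and their side of the threshold, 67 kept their direction but no longer passed, and none reversed. These fold changes were taken because they had passed, so they do not describe other members or comparisons. Apart from the dependence of DEX in AS mice on the count filter and of the counts on the libraries left out, the cause of these shifts was not tested. No paired analysis was possible because mouse numbers do not recur between groups. Over the alternatives, AS against PS and the PS interaction had 0 members called in every setting run.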

Other observations

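The remaining marker lists gave the following for DEX averaged over phenotypes in limma. Astrocyte markers (Aqp4, Gfap and others) had 1 rise and 1 fall among 7, with a median log2 fold change of -0.079. Markers of oligodendrocyte precursors had 1 rise among 4 (median 0.11). Microglial markers had 2 falls among 6 (median -0.017), and pyramidal neuron markers 1 fall among 5 (median 0.035). Of the 6 GABAergic neuron markers, the 4 leptomeningeal markers and the 5 blood markers, none was called, with medians of 0.021, -0.36 and -0.21. Endothelial and mural markers, described above beside Adcy4 in AS mice, had 3 falls among 8 (median -0.21) and 2 falls among 8 (median -0.19) on average. The striatal list had a median of 0.18.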
